A study of Mus musculus with 4 samples.

Results

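The sites described here are polyA sites that carry the same gene name, chromosome and strand as another site more than 10 kb away. All sites of the table were grouped by name, chromosome and strand, and a group was kept when its lowest and highest positions lay over 10 kb apart, with no minimum number of tags. This gave 629 groups of 7202 names and 1554 of 9297 sites, with 4382 of the 34672 tags. Groups of 2 sites made up 429 of the 629, 133 groups had 3 sites, and the remainder had between 4 and 7. Within a group, the first and last site are the 5′-most and 3′-most along the strand of the gene.

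Most mammalian genes can end their mRNA at more than one place. When the ends share a terminal exon, the choice changes the length of the 3′ UTR and leaves the protein as it is. When an end lies in an upstream intron or in an alternative last exon, the mRNA leaves out the downstream coding exons and encodes a protein with another C-terminus, as in the short forms of kalirin, of the neurotrophin receptors TrkB and TrkC, and of Homer1. In long neuronal genes such ends can lie far apart, so distance between same-name sites is a way to look for them, although a site can also receive a gene's name without lying in that gene.

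The data were 4 replicate libraries of cTag-PAPERCLIP from microdissected CA1 neuropil, the layer of mouse hippocampus that holds mainly the dendrites of CA1 pyramidal neurons. All 4 came from C57BL/6 mice of the genotype Camk2a-Cre x Pabpc1-cTag, in which the cytoplasmic polyA-binding protein PABPC1 carries a GFP tag only after Cre recombination, driven here by the Camk2a promoter of excitatory forebrain neurons. Hippocampal slices were irradiated with ultraviolet light to crosslink RNA to protein, and the RNA fragments purified with tagged PABPC1 (tags) mark mRNA 3′ ends. Each replicate pooled several animals per the study's methods, ages were not given in the labels, and the libraries formed a single group with no control. Replicates 1 to 4 held 16017, 6609, 5947 and 6099 tags. The sites over 10 kb apart held 1531, 800, 1078 and 973 of these, or 9.56, 12.1, 18.1 and 15.95% of each replicate (13.9 ± 3.84%, SD, n = 4). Replicate 1, the deepest, gave them the smallest share. Marker transcripts of pyramidal neurons made up between 0.622 and 0.836% of the tags of a replicate. Of these markers, no site carried the name Camk2a or Slc17a7, but the table held 215 tags under another name inside Camk2a, a calcium-dependent kinase gene, and 23 inside Slc17a7, the vesicular glutamate transporter gene. These are not part of that share, which rests on 246 tags. Markers of astrocytes made up at most 0.269%, of oligodendrocytes 0.545%, of interneurons 0.295% (0.118% with sites inside their gene alone), of red blood cells 1.28% and of microglia 0.0187% of a replicate. Of the 6 microglial markers 4 were at 0, Cx3cr1 and P2ry12 among them. Their part in the results below was not tested.

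The clearest instances of 1 gene with distant ends were genes in which both sites lay within 100 bases of the end of an annotated transcript (GENCODE vM21). The sequences around these ends are shown because the first end of each lay before the last coding exons, and each window holds a polyA signal, the hexamer AATAAA or ATTAAA that binds the cleavage machinery. Each window has 30 bases of GRCm38 on the strand of the gene, with the hexamer in capitals, and the listed site lies within 9 bases of the hexamer's first base.
Olfm1 first end, chr2:28214398-28214427, plus strand: tctcaactgacaAATAAAggcctttcccaa
Olfm1 last end, chr2:28230704-28230733, plus strand: tatctaaggaacAATAAAgatattaggaga
Klc1 first end, chr12:111794866-111794895, plus strand: tttctaacttctAATAAActcactccaact
Klc1 last end, chr12:111806677-111806706, plus strand: ttttaaaaaaaaATTAAAagtttatatgcc
Kalrn first end, chr16:34152026-34152055, minus strand: tggatgtgttctAATAAAatgattctaaag
Agap3 first end, chr5:24483153-24483182, plus strand: gccgtgtgtaagAATAAAcccattggaata
Agap3 last end, chr5:24502004-24502033, plus strand: gtatgatgagccAATAAAgcaggctgtatg
Ntrk2 first end, chr13:58936995-58937024, plus strand: ctttaacaagccAATAAAgttttatgattc
Ntrk2 last end, chr13:59133934-59133963, plus strand: atgatgtcttacAATAAAtaacatcttcca
Ntrk3 first end, chr7:78300698-78300727, minus strand: gtatagtttcttAATAAAcactttattttc
Ntrk3 last end, chr7:78175970-78175999, minus strand: ggtctcttctcaAATAAAgaataaaacaac
Of all sites in the table, 78.1% had AATAAA or ATTAAA within 50 bases on either side on their strand, against 68.2% of the sites over 10 kb apart. The last Kalrn end had neither hexamer in that window. The last Klc1 and Ntrk3 ends had at least 12 A in a stretch of 20 bases shortly downstream.

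The same-name distances were wide. The median distance between the ends of a group was 93.8 kb, with quartiles of 34.4 and 305 kb, and 304 groups spanned over 100 kb and 50 over 1 Mb. In 343 of the 626 groups whose gene is annotated, the distance exceeded the length of the gene itself. Sorted by the vM21 gene of their name, both end sites lay inside that gene in 189 groups (30.05%), which held 1274 tags. In 335 groups (53.3%, 2322 tags) the first site lay inside and the last site past the gene's end, in 15 the first lay outside and the last inside, in 87 neither lay inside, and 3 names were not annotated there. The share of groups inside 1 gene was lower at wider distances, from 47.9% of groups between 10 and 20 kb to 12.3% over 500 kb. The widest groups were Rag1 (6910 kb), Kdm4c, Tsn, Tlr4 and Nudt12os. None of these 5 had both ends inside its gene. At the threshold, Srsf10 (10.2 kb), Spint2 (10.4 kb) and Chrna4 (10.4 kb) were just inside, and Ube2k (9.98 kb), Insyn1 (9.88 kb) and Hipk2 (9.70 kb) just outside.

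**Figure D1:**
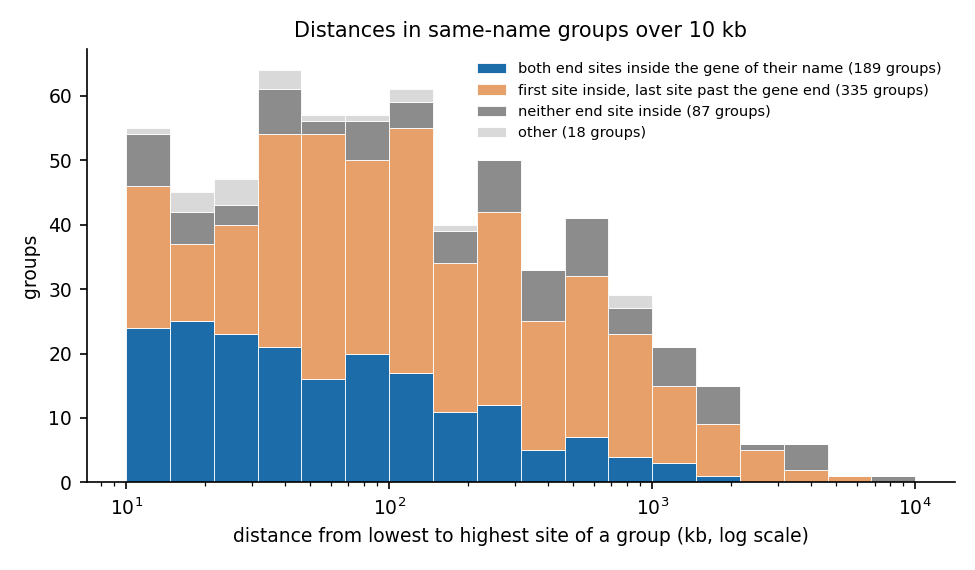
Histogram of the distance between the lowest and highest site of each of the 629 groups (x axis, kb on a log scale, y axis, number of groups), stacked by whether the end sites lay inside the vM21 gene of their name. Groups with both ends inside (189) are found mostly below 100 kb, while groups whose last site lay past the gene end (335) extend beyond 1 Mb.

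Most of these sites were seen in few tags. Of the 1554 sites, 967 had 1 tag over the 4 replicates and 86 had at least 10. Tags in more than 1 replicate were found at 413 sites (26.6%), against 34.2% of all sites, and tags in all 4 at 55 (3.54%), against 4.9% of all sites. Both end sites had tags in more than 1 replicate in 39 groups (6.20%), against 9.74% of all names with more than 1 site. In 202 groups every site had 1 tag, and the order of the ends in such groups was not detectable at this depth.

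Genes with annotated ends over 10 kb apart numbered 47, and in 42 of them the first end left out part of the longest annotated coding sequence. At the median, 50.6% of that coding sequence lay before the first end. The ends of each gene were divided at their widest gap, which was 7.78 kb in Map3k10, 7.97 kb in Tmod2 and over 10 kb in the others. Summed over the 47 genes, the upstream ends had 67, 27, 35 and 41 tags and the downstream ends 63, 36, 37 and 44 tags in replicates 1 to 4. Upstream ends thus held 47.8 ± 3.62% of the tags (SD, n = 4), and the log2 ratio of downstream to upstream tags was 0.13 ± 0.21 (two-sided exact sign-flip permutation test over the 4 replicates, p = 0.375). The near-equal sums rested on genes with opposite patterns, since 14 genes had more tags upstream, 25 more downstream and 8 the same number. Without Olfm1, which held 58 of the 170 upstream tags, the ratio was 0.74 ± 0.43. Leaving out the gene with the most upstream tags, chosen after the data were seen, raises the ratio by itself, so no test is given. Counting only ends with tags in more than 1 replicate left 3 genes, Olfm1, Kalrn and Gabbr1, and turned the ratio to -3.29 ± 0.67. That filter acts on the same tags and drops genes such as Nisch and Nsg2, whose upstream tags lay in 1 replicate. The lower ratio is therefore a description of the genes kept.

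Olfm1 encodes olfactomedin 1, a secreted neuronal glycoprotein whose short forms end in an upstream exon. Its first end (position 28214407) had 21, 13, 10 and 14 tags in replicates 1 to 4, with 31.3% of the longest coding sequence before it. The main downstream end, 16.3 kb away, had 3, 0, 0 and 1 tags, so the upstream end was higher in every replicate and the values did not overlap. Klc1, which encodes a light chain that links kinesin to its cargo, had 4, 1, 5 and 8 tags at its first end and 0, 0, 0 and 1 at its last. Its first end lay after 89.3% of the coding sequence, and again no replicate had more tags downstream. Agap3, a GTPase-activating protein for Arf proteins, had 8, 1, 2 and 3 tags upstream and 2, 0, 0 and 0 at the end 18.9 kb downstream.

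Kalrn encodes kalirin, a guanine nucleotide exchange factor of dendritic spines, and kalirin-7, its main adult neuronal form, ends well before the longest ones. The site at 34152045, after 54.5% of the longest coding sequence, had 6, 3, 1 and 5 tags. The 2 ends farther downstream had 0, 0, 0 and 1 tags (after 79.9% of the coding sequence) and 0, 0, 1 and 1 tags (after all of it). The upstream site was above the last end in replicates 1, 2 and 4, and level with it in replicate 3. Ntrk2 encodes TrkB, the receptor of brain-derived neurotrophic factor, whose truncated form lacks the kinase domain. Its end at 58937009, after 56.6% of the coding sequence, had 1 tag in every replicate, and the last end, 197 kb downstream, had 0, 1, 0 and 0. Ntrk3, which encodes the related receptor TrkC, had 0, 0, 1 and 0 tags at the upstream end and 0, 0, 3 and 3 at the last. With so few tags neither receptor gene's order of ends could be told from the spread between replicates.

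Other genes with annotated ends had most of their tags downstream. These genes were picked after their values were seen, as was Agap3. Nsg2, which encodes a neuronal endosomal protein, had 0, 0, 0 and 1 tags upstream and 5, 0, 6 and 7 downstream. Nisch, the gene of the imidazoline receptor-like protein nischarin, had 1 tag upstream, in replicate 1, and 8, 5, 3 and 3 downstream. Map3k10, a kinase of the JNK pathway, had 4, 0, 0 and 0 tags upstream and 4, 17, 2 and 0 downstream, across a gap of 7.78 kb. Nisch and Nsg2 were higher downstream in every replicate in which they had tags, while Map3k10 was level in replicate 1 and had most of its tags in replicate 2. Gabbr1, the GABA-B receptor subunit 1 gene, had 4 tags upstream and 2 downstream, with each side above the other in some replicate.

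**Figure D2:**
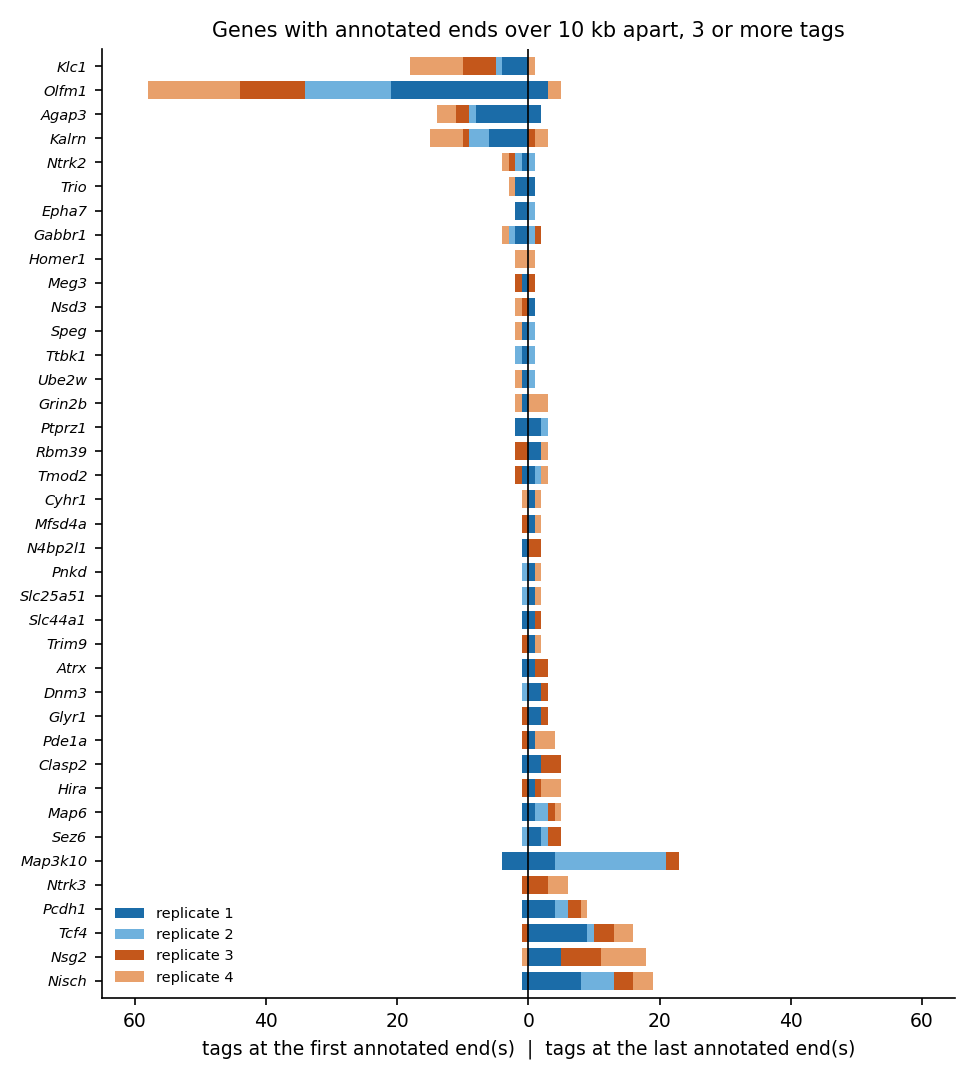
Tags at the upstream annotated ends (left of 0) and at the downstream annotated ends (right of 0) of genes with annotated ends over 10 kb apart and 3 or more tags at them, coloured by replicate. Olfm1, Klc1, Agap3 and Kalrn lie mostly to the left with tags of all 4 replicates, and Nisch and Nsg2 mostly to the right.

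Of 14 genes listed for their well-described alternative last exons or intronic ends, 12 had a site in the table and 9 of these (75%) had sites over 10 kb apart, against 8.73% of all names. The list was drawn up with earlier results of these data known, and long genes with many sites are common in it. Besides Klc1, Kalrn, Ntrk2 and Ntrk3, the members were Dclk1, Homer1, Ncam1, Pcf11 and Ube3a. Ncam1, a neural cell adhesion molecule whose glycolipid-anchored form ends upstream of the transmembrane exons, had 2, 3, 0 and 0 tags in an intron at 49515150, after 61.9% of the coding sequence and with a polyA signal, and 0, 1, 0 and 0 at its last end. That site was seen in replicates 1 and 2 only. Another intronic site upstream of it, with an A-rich stretch and no polyA signal, had 0, 0, 0 and 2 tags. Homer1, a postsynaptic scaffold gene with an activity-induced short form, had 0, 0, 0 and 2 tags at its upstream end, after 51.8% of the coding sequence, and 0, 0, 0 and 1 at its next annotated end. Dclk1, a doublecortin-like kinase, had a lone tag in the 3′ UTR of a shorter transcript, after 45.6% of the longest coding sequence, and its other tags at 3 sites after all of it, the highest with 5, 0, 3 and 1. Pcf11, itself a cleavage factor, had 1 tag at an end after 4.12% of its coding sequence and 1 in its 3′ UTR. Ube3a had 1 or 2 tags at each of its 4 sites, and 1 of these lay 852 kb past the gene.

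Of a short list of 6 genes taken from the many isoform genes of the study, Cnksr2 and Ankrd11 had sites over 10 kb apart. Cnksr2 encodes a scaffold of Ras signalling at the postsynaptic density, whose long form has a C-terminal PDZ-binding motif. It had 0, 0, 0 and 1 and 0, 1, 0 and 0 tags at its upstream ends, after 86.8% of the coding sequence. A site 6.12 kb past the vM21 gene end had 5, 1, 1 and 5 tags and a polyA signal, so the downstream site was as high or higher in every replicate. Ankrd11, a chromatin regulator, had 1 tag at an annotated end after 10.1% of its coding sequence and 1 tag 0.488 kb past its last annotated end, both in replicate 1. Of the 14 genes of the cleavage and polyadenylation machinery with a site, 3 (21.4%, against 8.73% of all names) were members (Pcf11, Papola and Pabpn1). Papola, the canonical polyA polymerase, had 1 tag at either end.

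Of 37 long synaptic genes with a site in the table, 16 (43.2%, against 8.73% of all names) had sites over 10 kb apart, 13 of them with both ends inside the gene. The list was chosen for gene length, which the distance rule favours. The last site held more tags in 10 of the 16 and the first in 1, against 31.3 and 26.1% of all groups over 10 kb apart. Nrxn3, which encodes a presynaptic neurexin, had 0, 0, 4 and 0 tags in an intron and 6, 1, 2 and 5 at its 3′ UTR site. Dlgap1, a postsynaptic scaffold gene, had 0, 0, 1 and 0 tags at its first site and 6, 0, 0 and 1 at its last. Grin2a, an NMDA receptor subunit gene, had 0, 0, 1 and 0 in an intron and 4, 0, 1 and 2 in its 3′ UTR. In these 3 genes, given as examples of the 16, the tags at the first site, which was intronic, all fell in replicate 3. Gria4, also among the 16, had an intronic site with 1, 0, 1 and 1 tags and a polyA signal. Ptprd and Magi2, genes of a receptor phosphatase and of a synaptic scaffold, spanned 1933 and 1428 kb with 6 and 4 tags in all. Markers of astrocytes gave 2 members, Slc1a2 and Slc1a3, both glutamate transporter genes. Slc1a2 had 0, 1, 0 and 0 tags in an intron and 14, 1, 2 and 2 at its last 3′ UTR site. Markers of pyramidal neurons, oligodendrocytes, microglia and red blood cells gave none.

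The 189 groups inside 1 gene differed in what marked their ends. The first site lay in an intron in 133, in a 3′ UTR in 40 and in a noncoding exon in 14, and it came before the last annotated stop codon in 183 of the 187 groups with a coding gene. The 40 first sites in a 3′ UTR resembled ordinary ends, with a polyA signal at 85.0% and an annotated transcript end at 35. Of the 133 intronic first sites, 48.1% had a polyA signal, 2 lay at an annotated end and 94 (70.7%) had at least 12 A in a stretch of 20 bases shortly downstream. The same A-rich stretch was found at 17.4% of the 172 last sites in a 3′ UTR and at 28.5% of all sites. Priming on such stretches was not tested. A lone tag made up 107 of the 133 intronic first sites, and 11 (8.27%) had tags in more than 1 replicate, against 34.2% of all sites. Among intronic sites that share was 10.1% over 10 kb apart, 14.8% in groups at most 10 kb apart and 13.4% for names with no other site. Over all intronic sites of the table's sets, a polyA signal was found at 50% of the 238 over 10 kb apart, at 63.0% of the 54 in groups at most 10 kb apart and at 54.2% of the 201 whose name had no other site. The A-rich stretch was found at 67.6, 37.0 and 63.2% of these, so it was about as common at the intronic sites of names with no other site.

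In 7 genes a site in an intron of the gene and a site in its 3′ UTR each had tags in more than 1 replicate, although for Ubr4 the first site also lay in a 3′ UTR. Rc3h1, a gene of an RNA-binding protein that promotes mRNA decay, had 0, 0, 2 and 3 tags in an intron and 0, 1, 1 and 2 in its 3′ UTR. Dscaml1, a cell adhesion molecule gene, had 0, 0, 2 and 2 in an intron and 2, 0, 1 and 0 in its 3′ UTR, and Tmed8 had 0, 0, 1 and 2 and 1, 0, 0 and 1. The intronic tags of these 3 genes were all in replicates 3 and 4. Dync1i1, a dynein subunit gene, had 0, 1, 1 and 0 tags in an intron and 1, 0, 0 and 2 at its end. The first Ubr4 site, with 1, 0, 1 and 0 tags, lay in an intron of Ubr4 and in a 3′ UTR of Emc1 on the same strand, and is counted among 3′ UTRs elsewhere. Its gene cannot be told apart. Notch2 and Nf1 had far more tags in the intron than at the 3′ UTR. Notch2, a developmental receptor gene, had 1, 0, 26 and 32 tags in the intron and 1, 0, 1 and 0 at its end. Nf1, the neurofibromin gene, had 0, 0, 10 and 14 in the intron and 2, 1, 0 and 0 at its end. Replicates 3 and 4 were high and replicates 1 and 2 at or near 0 at both introns. Apart from Ubr4, none of the intronic sites of these genes had a polyA signal, and those of Notch2, Rc3h1, Tmed8 and Dync1i1 had the A-rich stretch.

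In the 335 groups whose last site lay past the gene, first sites had 376, 193, 194 and 216 tags and last sites 220, 153, 266 and 184, a log2 ratio of -0.22 ± 0.51 (exact sign-flip permutation test, p = 0.5) that was above 0 in replicate 3 only. Several of the groups with the most tags had an abundant 3′ UTR site and a rare distant one. Ndufa4, which encodes a subunit of the mitochondrial respiratory chain, had 27, 13, 14 and 18 tags at its 3′ UTR site and 1, 0, 2 and 1 at a site 562 kb past the gene. Pcsk1n, the gene of the neuropeptide precursor proSAAS, had 38, 25, 4 and 4 tags at its 3′ UTR site and 1, 0, 0 and 0 at a site 95.4 kb past the gene. Ywhaz, a 14-3-3 gene, had 10, 6, 9 and 13 at its main site and 0, 0, 2 and 2 at a site 154 kb past it. Gpm6a, a neuronal membrane glycoprotein gene, had 12, 8, 8 and 8 tags at its highest 3′ UTR site and 0, 1, 0 and 1 at a site 16.2 kb past the gene, in another transcript. In these 4 genes every replicate had more tags at the 3′ UTR site. Prkcb, Mpped1 and Cplx2, which encode a protein kinase C, a phosphoesterase-like protein and a vesicle-fusion regulator, had the rare site upstream, with a lone tag at the first site and 37, 41 and 54 at the last. Pld3, a phospholipase D family gene, had its highest sites close together, with 9, 0, 2 and 1 and 11, 1, 2 and 4 tags, and a lone tag 63.1 kb past the gene. Of the interneuron markers, Npy and Cck, both neuropeptide genes, were members. Npy had 4, 0, 0 and 1 tags at its 3′ UTR site and 0, 0, 6 and 11 at a site 103 kb past the gene, so the 3′ UTR site was higher in replicate 1 and the distant site in replicates 3 and 4. Cck had 2, 4, 5 and 3 tags at its 3′ UTR site and 1, 0, 0 and 0 at the distant one.

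Of the 626 sites outside the gene of their name, 472 lay between genes past its end and 148 in another gene on the same strand. The median distance past the end was 112 kb, and 318 sites were over 100 kb past it. Tags outside the gene of their name made up 33.0, 43.5, 43.1 and 36.6% of the tags of the groups over 10 kb apart, and 14.8, 9.37, 12.9 and 12.7% of those of groups at most 10 kb apart. The difference was 26.6 ± 7.03 percentage points (SD, n = 4) and positive in 4 of 4 replicates. It is given as a description, since a distance of over 10 kb itself makes a place outside the gene more likely. Some such names hid well-covered ends of other genes. The first site named Sez6l2 lay in Kctd13, which encodes a cullin 3 adaptor, and had 15, 4, 3 and 3 tags, against 1, 2, 1 and 1 at the Sez6l2 3′ UTR. Sez6l2 and Abi1 were the only groups in which sites over 10 kb apart each had tags in all 4 replicates, and in neither did these sites lie in 1 gene. Of the 3 sites named Mir7661, 2 lay in the 3′ UTR of Itpr1, the gene of an intracellular calcium channel, with 13, 7, 2 and 5 tags at the highest, and the last, with 1 tag, lay between genes.

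A part of the outside sites had the sequence of another gene's transcript. Around each site, 100 bases upstream and 20 downstream were aligned to all vM21 transcripts, and a match of at least 80 bases at 90% identity outside the site's own locus was counted. Such matches were found at 264 of the 1554 sites (17.0%), 3.05% of the sites in groups at most 10 kb apart and 8.42% of all sites. The shares are also given within each annotation class. Between genes they were 38.9% of the sites over 10 kb apart, 38.9% of the sites of names with no other site and 14.9% in groups at most 10 kb apart. In the same order they were 22.3, 26.9 and 22.2% in introns, 1.32, 1.92 and 1.21% in 3′ UTRs, and 20, 10.4 and 8.33% in noncoding exons. Leaving aside sites that carry sequence of the noncoding RNA Bc1, 242 sites with 429 tags remained, 120 of which reached within 30 bases of the other transcript's 3′ end. Of the 242, 102 (188 tags) matched 1 other gene, 102 (149 tags) matched over 10 and 66 (104 tags) over 100, so a part of them had sequence found in many transcripts. The site named Elmod2, 142 kb past that gene, matched Psap, which encodes the lysosomal protein prosaposin, at 100% over 105 bases and had 0, 5, 5 and 9 tags. The last site named Abi1 matched the mitochondrial transcript mt-Co2 at 97.2% over 107 bases and had 2, 1, 10 and 5 tags, while the Abi1 3′ UTR site at 22940387 had 1 in every replicate. Smaller examples, like Elmod2 picked after their values were seen, were sites named Cct2 (Rps15, 6 tags), Pcgf3 (Rpl34, 5 tags), Akr1d1 (Atp6v0c, 5 tags) and Abi2 (Eif4a1, 4 tags), the matched genes encoding ribosomal proteins, a proton pump subunit and a translation initiation factor. From which copy the RNA came cannot be told apart. With Bc1-like sites counted, 13.3 ± 7.04% of the tags of the groups over 10 kb apart lay at such sites, with the highest share, 23.4%, in replicate 2. The difference from groups at most 10 kb apart was 11.3 ± 7.29 points (4 of 4 replicates), given with no test since such matches varied with the annotation class. It was 8.70 ± 3.06 points without Bc1-like sites, and 3.88 ± 3.83 points with only sites seen in more than 1 replicate, where replicate 4 was at -0.06 and the other replicates above 0.

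The replicates fell into pairs at some of these sites. Bc1 is a short noncoding RNA of rodent dendrites, and the first 74 bases of its gene were cut into 63 overlapping words of 12 bases. A site with 10 or more of these words within 75 bases on either side is called Bc1-like here. There were 38 Bc1-like sites (2.45% of the sites over 10 kb apart), 31 of them outside the gene of their name and 4 with a polyA signal. Bc1-like sites made up 1.2% of all sites, 0.238% of the sites in groups at most 10 kb apart and 1.22% of those whose name had no other site. They held 137, 166, 4 and 3 tags, or 8.95, 20.8, 0.371 and 0.308% of the tags of the groups over 10 kb apart. Replicates 1 and 2 were high and replicates 3 and 4 low. Of the 9 Bc1-like sites with at least 10 tags, 6 had all their tags in 1 library and 1, the site named Akap8, had tags in all 4 (21, 2, 2 and 1). Among the former were sites with 57, 0, 0 and 0 tags at the site named 2510009E07Rik, 0, 33, 0 and 0 at that named Cblb, 0, 28, 0 and 0 at that named Tsn, and 23, 0, 0 and 0 at the last site named A330008L17Rik. The other site of A330008L17Rik had 0, 0, 17 and 4 tags and matched transcripts of 171 other genes.

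Some sites showed the reverse. Of the 86 sites with at least 10 tags, 15 had over 90% of them in replicates 3 and 4, as had 1 of 118 such sites in groups at most 10 kb apart and 18 of 277 whose name had no other site. These sites were picked by their tags, so their values are a description. Beside the Notch2 and Nf1 introns they included the last sites named Ppp4r2 (0, 0, 11 and 24), Rragc (1, 0, 13 and 15) and Lgi1 (0, 0, 9 and 8), all past the gene end. The Rragc and Ppp4r2 3′ UTR sites had at most 1 tag in any replicate. What sets the pairs of libraries apart was not tested.

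**Figure D3:**
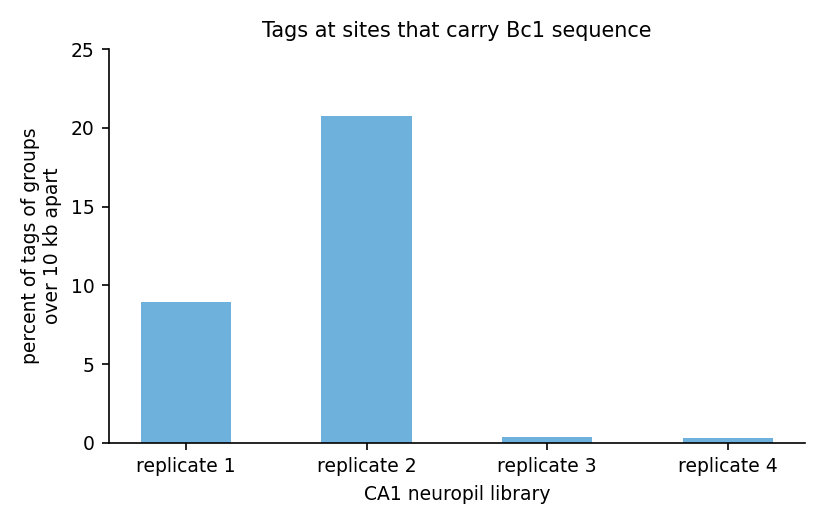
Percent of the tags of the groups over 10 kb apart that lay at Bc1-like sites in each of the 4 libraries (bars start at 0). The share is 8.95% in replicate 1 and 20.8% in replicate 2, and below 0.4% in replicates 3 and 4.

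The annotation of the tags showed how far these groups differed from groups with sites at most 10 kb apart, which have 2100 sites and 931 names. Tags in 3′ UTRs made up 67.5, 55.9, 40.8 and 58.4% of the tags over 10 kb apart and 94.6, 95.8, 91.5 and 94.1% of the others, a difference of -38.4 ± 9.78 points. Intronic tags made up 5.29, 7, 20.3 and 14.3% against 0.821 to 1.73%, a difference of 10.7 ± 6.56 points. Tags between genes made up 28.9 ± 5.98% against 3.71 ± 0.535%, and tags in noncoding exons 3.58 ± 0.534% against 1.04 ± 0.930%. The values of the sets did not overlap in any of these classes, and each difference had the same sign in 4 of 4 replicates. Sites close together can share a terminal exon while sites over 10 kb apart seldom can, so the distance rule bears on these differences and they are given with no test. Against all other sites of the table, the intronic difference was 1.61 ± 17.7 points, with replicate 1 at -24.2 and the other replicates above 0. In the same comparison the 3′ UTR difference was -21.7 ± 20.2 points with replicate 1 at 7.26, and that of noncoding exons 1.06 ± 2.22 points with replicate 1 at -2.21. Of the 4 classes, only the share between genes differed with the same sign in 4 of 4 replicates there, by 13.5 to 22.2 points. Tags with a polyA signal made up 66.2 ± 9.42% against 78.3 ± 3.99%, a difference of -12.1 ± 8.10 points (4 of 4 replicates lower). With the signal sought in the 50 bases upstream alone it was 3.68 ± 4.11 points. That window found a signal at 27.7% of all sites, against 78.1% with both sides. With both sides, the difference was -6.47 ± 10.7 points without Bc1-like sites, with replicate 1 above 0. Against all other sites it was -6.93 ± 17.6 points, with replicate 1 at 18.2. The signal varied with the annotation class, so this difference too is given with no test. By site, within 3′ UTRs it was found at 81.4% of the sites over 10 kb apart and at 72.5% of those at most 10 kb apart, and between genes at 57.5 and 71.3%.

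**Figure D4:**
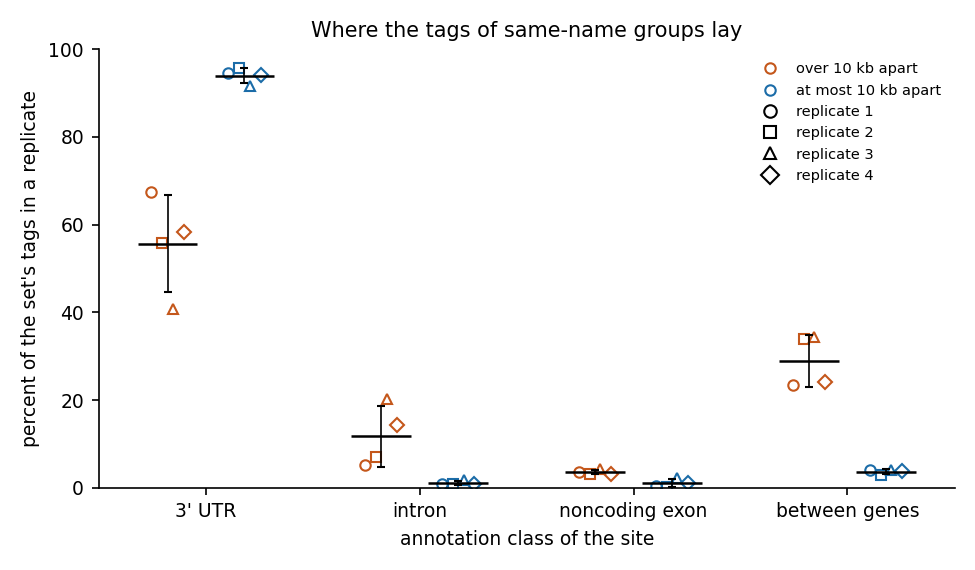
Percent of tags in 4 annotation classes in each replicate for groups over 10 kb apart (orange) and at most 10 kb apart (blue), with a line at the mean and bars of 1 SD (n = 4). The 3′ UTR values of the groups over 10 kb apart (40.8 to 67.5%) all lie below those of the other set (91.5 to 95.8%).

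Taken along the strand, the order of the last and first sites over 10 kb apart depended on which sites were counted. The last site had more tags in 197 groups (31.3%, against 35.4% of all names with more than 1 site), the first in 164 (26.1%, against 25.8%), and 268 were equal. Summed over groups, first sites had 581, 312, 435 and 378 tags and last sites 656, 329, 448 and 374, a log2 ratio of 0.07 ± 0.08 (exact sign-flip permutation test, p = 0.25). It was 0.23 ± 0.08 without the 10 groups with the most tags, above 0 in 4 of 4 replicates, and -0.90 ± 0.97 with only sites seen in more than 1 replicate, below 0 in 4 of 4. Both choices act on the same tags as the ratio, so these values are a description. In groups at most 10 kb apart the same ratio was 0.57 ± 0.24 and positive in 4 of 4 replicates (exact permutation p = 0.125). The ratio over 10 kb apart was lower by 0.17 to 0.71 in every replicate, with a mean difference of -0.50 ± 0.24 (exact permutation p = 0.125). For the groups inside 1 gene this difference was 0.58, 0.28, -0.52 and -0.46 in replicates 1 to 4, with a mean of -0.03 ± 0.55. Within the groups inside 1 gene, the ratios were 1.21, 1.01, -0.31 and 0.24 (0.54 ± 0.70, exact permutation p = 0.375), positive in all but replicate 3. Leaving out 1 replicate at a time gave 0.32 (without replicate 1) to 0.82 (without replicate 3). Counting only sites with tags in more than 1 replicate, a choice made on the same tags, left 12 of these genes. It turned the ratio to -2.32 ± 0.72, with Olfm1, Notch2 and Nf1 among the genes kept.

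**Figure D5:**
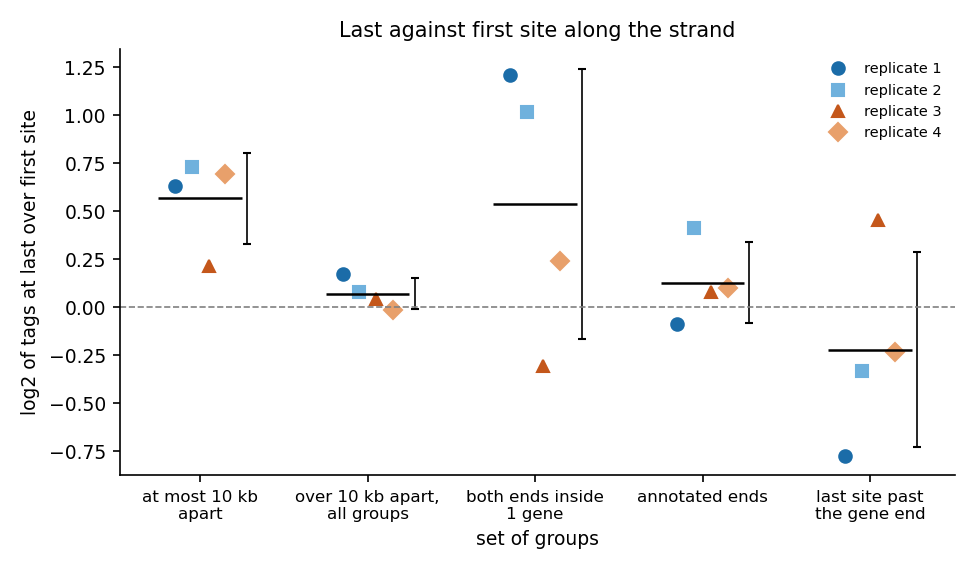
Log2 ratio of summed tags at the last site to summed tags at the first site in each replicate for 5 sets of groups, with a line at the mean and bars of 1 SD (n = 4), and for annotated ends of the downstream to the upstream ends. The groups at most 10 kb apart lie above 0 in all 4 replicates, and the groups inside 1 gene range from -0.31 to 1.21.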

How the data were processed

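The authors deposited 1 table of raw tag counts in the 4 neuropil libraries, in which each row is a polyA site at a single base with its strand and gene name. The study's methods describe mapping to the genome and clustering of tags into sites by the CTK software, and the submitters' processing notes name cutadapt, Novoalign and mm10. How names were assigned and how tags that match several places were treated is not given in the sources used here. All positions fitted within the GRCm38 chromosomes (0 beyond an end).

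Members and gene lists were chosen with earlier results of these data known. Sites were annotated with GENCODE vM21 on their strand (pysam 0.24.0, pandas 2.3.3) (3′ UTR before other exons, exons before introns). The 100 bases before and 20 after each site were aligned to vM21 transcripts with blastn 2.17.0. Libraries pool animals, and p-values measure the spread between these 4 libraries. Differences were tested within replicates with a two-sided exact sign-flip permutation test, whose smallest p with 4 replicates is 0.125, so no result can pass 0.05. Annotation classes and places outside the gene depend on the distance between sites, and the polyA signal and sequence matches vary with the class, so their differences are given with no test. Shares are percentages of a replicate's tags. A count of 0 allows up to 3 tags, or 0.0187, 0.0454, 0.0504 and 0.0492% of replicates 1 to 4, for counting error only, since amplified tags are not independent molecules. Scripts were tested on simulated data.

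The genes named are the 20 groups with the most tags, groups with distant sites each seen in all 4 replicates, the 5 widest, the 3 on either side of 10 kb, list members, and up to 10 genes with an intronic and a 3′ UTR site each seen in more than 1 replicate. The sequence match and the annotated ends were examined after the data had been seen. A named gene and some sequences are not reported here. The cell type and gene lists are described by counts only.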

Additional observations from a re-analysis of the deposited data

Results flagged for a closer look

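In 4 groups, 1 library stood far from the other 3 in the share of its tags, among 36 sets of 4 values examined. At 2510009E07Rik the highest library had 0.356% of its tags and the next 0.0303% (gap over range 0.915). At Cblb they had 0.514 and 0.0336% (0.935), and at Tsn 0.424 and 0.0336% (0.921). The high library was replicate 1 for 2510009E07Rik and replicate 2 for the other two, and the tags lay at Bc1-like sites. At Kalrn, replicate 4 had 0.131% and the next library 0.0454% (0.879), on 8 and 3 tags. For normally distributed values chance flags about 1 in 20 such sets, and the rate for sparse tag counts was not measured.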

How the results depend on the processing

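Of 94 alternative values for 12 results, 88 kept the direction and the side of the threshold, or moved by less than 1 SD for the untested share of tags. Counting only sites with tags in more than 1 replicate (46 groups) turned the log2 ratio of last to first sites to -0.90 over all groups, to -2.32 in groups inside 1 gene (12 groups) and to -3.29 between annotated ends (3 groups, Olfm1, Kalrn and Gabbr1). Those alternatives keep few groups and choose them by the same tags that enter the ratio. The polyA signal difference became 3.68 points with the 50 bases upstream alone. That window found a signal at 27.7% of all sites, against 78.1% with both sides, and the cause of the change was not tested. The share of tags was 3.97% with only sites in more than 1 replicate and 9.19% over 50 kb. Leaving out each replicate in turn gave a share of 12.5 to 15.4%, ratios of 0.03 to 0.10 over all groups, 0.32 to 0.82 inside 1 gene and 0.03 to 0.20 between annotated ends. It gave differences of -42.1 to -34.3 points for 3′ UTRs, 8.03 to 12.7 for introns, 2.29 to 2.74 for noncoding exons, 23.3 to 27.2 between genes, -15.4 to -9.20 for the polyA signal, 24.1 to 29.4 for tags outside their gene and 7.83 to 13.4 for sequence in another transcript. With 3 libraries no p could reach the threshold, nor could it with 4. All alternatives for groups inside 1 gene, annotated ends and sequence matches were chosen after seeing the data, as were the comparisons with all other sites for the polyA signal and for tags outside their gene, and leaving out Bc1-like sites for the latter. Most sites had 1 tag, and that depth limits every statement on a single gene.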
